A study of Mus musculus with 8 samples.

Results

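The genes described here were grouped as genes of the sebaceous gland and of steroid metabolism: Cyp2g1, Hsd3b6, Far2, Mgst1, Awat2, Elovl3, Pparg, Mc5r and Scd3. They were measured in the epidermis of newborn mice, and that grouping was not tested here. The set was chosen by the log2 differences between genotypes on these same arrays, because Cyp2g1, Hsd3b6 and Far2 were lower in mice expressing a mutant mitochondrial helicase. The difference between genotypes is therefore given for these genes as a description and not as a test. Of the 10 genes named, 9 had a probe set assigned to that gene alone among the 22180 genes measured, each through 1 probe set. Soat1, the remaining one, was not analysed here.

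The sebaceous gland is an appendage of the hair follicle that forms around birth, and its cells fill with lipid and burst to release sebum. Sebum holds wax esters, triglycerides and sterol esters, which are built from fatty acids that have been elongated, desaturated, reduced to alcohols or joined to alcohols. The same cells respond to PPARγ and to melanocortin, and skin can convert steroid precursors locally with hydroxysteroid dehydrogenases. Several of these genes are also used elsewhere: Pparg, Elovl3 and the Scd genes in fat, and Elovl3 in the hair follicle.

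Total RNA from the epidermis of C57BL/6J newborns at postnatal day 0 was hybridised to 8 arrays. In 4 arrays, labelled K320E-TwinkleEpi and called K320E below, the mutant K320E-Twinkle was expressed under the K14 promoter, which is active in basal keratinocytes and in the follicle and gland cells that descend from them. The 4 controls carried the genotype R26-K320E-TwinkleloxP/+, so both groups carry a K320E-Twinkle allele by name, and no other age or treatment was included. The labels do not say whether each array is a separate animal or a pool, so each p-value reflects array-to-array spread alone, and that spread may be technical.

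Values are log2 intensities as the authors deposited them, and a difference of 1 is a 2-fold change. Twnk, the gene for Twinkle, lay between 8.91 and 9.28 in K320E and between 6.55 and 6.95 in controls, so no array went against its genotype label. The 13 keratinocyte markers averaged 11.82 or more on every array. Control replicate 4 stood apart in its hair follicle genes: the mean of 25 hair structure genes was 8.57 there, 7.19 to 7.87 in the other controls and 6.71 to 7.09 in K320E. K320E replicate 3 stood apart in its fat genes, with a mean of 7.60 over 12 white adipocyte markers against 6.51 to 6.69 on the other 7 arrays. That array was also highest in the skeletal muscle mean (7.38 against 6.33 to 7.06) and the brown adipocyte mean (6.0 against 5.71 to 5.83). Sex-linked transcripts were unusual on 2 controls: control replicate 2 had both Xist (9.27) and Y-linked genes (mean 9.05), while control replicate 3 had little of either (Xist 6.17, Y-linked mean 4.75). K320E replicate 3 was the only K320E array with Y-linked genes (mean 8.64) and had low Xist (6.84). The other K320E arrays and control replicates 1 and 4 had Xist at 12.07 or more and Y-linked means of 4.75 to 4.82. Array files carry no read depth, and the number of arrays, 4 in each group, limits the precision.

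RefSeq start sites (GRCm38.p6) were used for 6 of the 9 genes, with Cyp2g1, Elovl3 and Mc5r left out. The 250 bases upstream of the start are shown for Hsd3b6 and Far2, both lower in K320E, and for Scd3, which was highest on control replicate 4. They are printed 5′ to 3′ on the gene's strand, with capitals for the letters of any motif searched.
Hsd3b6 (chr3:98814444-98814693, minus strand): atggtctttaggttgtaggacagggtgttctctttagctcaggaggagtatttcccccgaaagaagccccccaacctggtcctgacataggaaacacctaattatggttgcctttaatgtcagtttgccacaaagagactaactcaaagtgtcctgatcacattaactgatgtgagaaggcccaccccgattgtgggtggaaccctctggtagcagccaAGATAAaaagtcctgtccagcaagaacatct
Far2 (chr6:148047166-148047415, plus strand): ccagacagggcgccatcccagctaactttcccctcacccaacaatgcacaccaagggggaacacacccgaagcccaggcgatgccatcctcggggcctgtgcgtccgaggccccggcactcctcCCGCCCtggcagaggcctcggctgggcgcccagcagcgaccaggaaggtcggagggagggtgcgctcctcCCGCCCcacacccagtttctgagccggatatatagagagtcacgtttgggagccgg
Scd3 (chr19:44203038-44203287, plus strand): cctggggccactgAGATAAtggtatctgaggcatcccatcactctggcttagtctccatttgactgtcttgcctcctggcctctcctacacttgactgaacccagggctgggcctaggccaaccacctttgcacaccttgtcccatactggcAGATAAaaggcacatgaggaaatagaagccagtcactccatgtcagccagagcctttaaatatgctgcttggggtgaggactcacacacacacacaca
The motifs, searched on both strands, were the nuclear receptor half-site AGGTCA, its direct repeat with a single base between the copies (which contains the half-site and is the form PPARγ binds with RXR), the letters TATAAA of the core promoter element, the pentamer CCAAT bound by NF-Y, the GC box written GGGCGG and, for GATA factors, AGATAA. Hsd3b6 held AGATAA once, 31 bases before the start, and Scd3 held it at 98 and 237 bases. That motif occurs in 9.99% of 32851 promoter windows of this length. Far2 held the GC box on the minus strand at 56 and 126 bases, and 32.7% of windows hold it. The direct repeat was in none of the 10 windows of these 6 genes and in 0.0335% of all windows. The half-site was in 2 of the 3 windows of Pparg itself, at 9 and 28 bases, and in 14% of all windows. These matches describe letters and do not show binding.

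All 9 genes had a negative difference (K320E minus control), against 50.2% of all genes, with a median of -0.39 on the log2 scale beside -0.0005 over all genes. In limma's fit across all genes, 3 passed an adjusted p under 0.05, namely Cyp2g1, Hsd3b6 and Far2, the genes for which the set was chosen. Over all genes 0.194% passed in this direction, and 0.879% in either. The groups did not overlap for 4 of the 9, Cyp2g1, Hsd3b6, Elovl3 and Far2, each with every K320E array below every control. Of all genes, 9.25% had groups that did not overlap, 3.75% with K320E lower and 5.5% with K320E higher. Of the 9 genes 7, all but Far2 and Awat2, were highest of the 8 arrays in control replicate 4, as were 12.5% of all genes. The count of 3 became 2 without K320E replicate 1, control replicate 2 or control replicate 3, 1 without K320E replicate 4 or control replicate 1, and 0 without K320E replicate 3, and it was 3 without K320E replicate 2 or control replicate 4. Without the 2 controls of unusual sex-linked transcripts it was 2, Far2 losing its call. With the hair structure mean or the white adipocyte mean of each array as a covariate it was 0, so Cyp2g1, Hsd3b6 and Far2 all lost theirs. Their differences, in that order, were -1.94, -1.79 and -0.39 without a covariate. They were -1.93, -1.75 and -0.37 with the white adipocyte covariate, and -1.28, -1.12 and -0.48 with the hair structure covariate. In whole epidermis, fewer gland or follicle cells and less RNA per cell cannot be told apart.

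**Figure D1:**
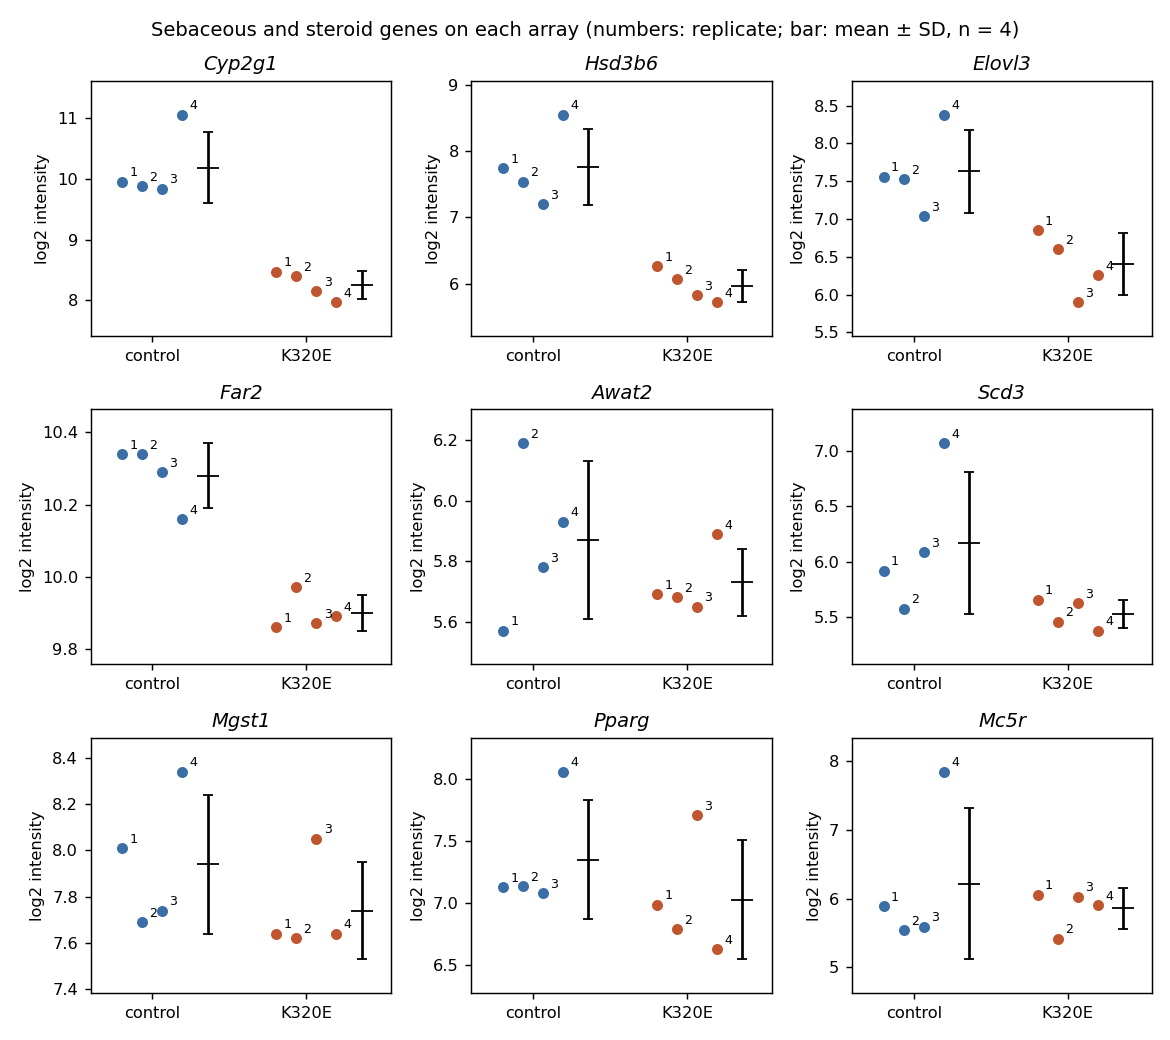
Log2 intensity (vertical axes, each on its own scale) of the 9 genes on each array of the control and K320E groups; numbers give the replicate, and bars the mean ± SD (n = 4). Cyp2g1, Hsd3b6, Elovl3 and Far2 separate the groups, while in Scd3, Mgst1, Pparg and Mc5r the highest point is control replicate 4 and the remaining arrays overlap.

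Cyp2g1 encodes a cytochrome P450 of the CYP2 family, best known from the olfactory mucosa, where it oxidises steroids and odorants. It measured 9.96, 9.88, 9.84 and 11.06 in control replicates 1 to 4 and 8.47, 8.4, 8.15 and 7.97 in K320E replicates 1 to 4. The groups lay 1.37 apart at their closest. Control replicate 4 was 1.10 above the next control, while the other 3 controls lay within 9.84 to 9.96. Controls averaged 10.19 ± 0.59 and K320E 8.25 ± 0.23 (mean ± SD, n = 4 arrays), so K320E minus control was -1.94 (SE 0.26), or 3.84-fold lower. Without control replicate 4 the difference was -1.65 (SE 0.12), or 3.14-fold.

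Hsd3b6 encodes a 3β-hydroxysteroid dehydrogenase, an enzyme that turns Δ5 steroids such as pregnenolone into Δ4 steroids such as progesterone. It measured 7.74, 7.54, 7.20 and 8.55 in the controls and 6.26, 6.07, 5.83 and 5.72 in K320E. No K320E array reached the lowest control, 0.94 above the highest of them. The order of the arrays within each group was the same as for Cyp2g1, highest in control replicate 4 and lowest in K320E replicate 4. The difference was -1.79 (SE 0.25), or 3.45-fold lower, and -1.52 (SE 0.16), or 2.87-fold, without control replicate 4. The K320E mean, 5.97, lay below the median of every array, 6.06 or more, so part of it may be background.

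Mouse Hsd3b genes lie together on chromosome 3 and share much of their sequence, so cross-hybridisation between them can blur a single member. The other Hsd3b genes on the array had smaller differences. Hsd3b1 measured 4.53 to 4.71 in K320E and 4.64 to 4.76 in control replicates 1, 2 and 4, with 4.53 in control replicate 3. The differences were -0.01 for Hsd3b1, 0.00 for Hsd3b3, -0.06 for Hsd3b5 and -0.19 for Hsd3b2 (limma adjusted p = 0.23 to 0.99 over the 4), and of these only Hsd3b2 had groups that did not overlap, 5.12 to 5.35 in K320E and 5.39 to 5.56 in controls. Hsd3b7, a bile acid enzyme encoded elsewhere, had a difference of 0.15. All of these values lie below the median of every array, 6.06 or more.

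Elovl3, an elongase of saturated very long chain fatty acids made in sebaceous glands, hair follicles and brown fat, was separated too. It measured 7.56, 7.53, 7.04 and 8.38 in the controls and 6.85, 6.60, 5.90 and 6.26 in K320E. Here the gap between the groups was 0.19, less than the SD within either group (0.41 in K320E and 0.55 in controls). The difference was -1.23 (SE 0.28), or 2.34-fold lower, and did not pass the threshold over all genes. It was -0.98 (SE 0.22) without control replicate 4. Ucp1, the uncoupling protein that defines brown fat, measured 6.00, 6.80, 6.91 and 6.07 in K320E and 5.82, 6.64, 6.79 and 6.30 in controls. The 10 brown adipocyte markers had a median difference of 0.06. The part of brown fat in the Elovl3 values was not tested.

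Far2 encodes a fatty acyl-CoA reductase, which makes the fatty alcohols that go into wax esters. It measured 10.34, 10.34, 10.29 and 10.16 in the controls and 9.86, 9.97, 9.87 and 9.89 in K320E. The difference was small, -0.39 (SE 0.06) or 1.31-fold lower, with little spread in either group (SD 0.05 in K320E and 0.09 in controls). Unlike Cyp2g1, Hsd3b6 and Elovl3, control replicate 4 was the lowest of the controls, 0.17 below the mean of the other 3, and without it the difference was -0.43 (SE 0.06). Far1, the other fatty acyl-CoA reductase, had a difference of -0.12 (SE 0.10) and overlapping groups.

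Awat2, the wax alcohol acyltransferase that joins fatty alcohols to fatty acids, did not separate the genotypes. It measured 5.57, 6.19, 5.78 and 5.93 in the controls and 5.69, 5.68, 5.65 and 5.89 in K320E, a difference of -0.14 (SE 0.12). Its mean over the 8 arrays, 5.80, lay below the median of every array, 6.06 or more, and may be background. Its relative Awat1 ranged from 6.87 to 7.95 in controls and from 6.68 to 7.57 in K320E. Neither was highest on control replicate 4.

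Scd3, a stearoyl-CoA desaturase of sebocytes, which introduces the double bond into palmitate and stearate, measured 5.92, 5.58, 6.09 and 7.07 in the controls. In K320E it measured 5.66, 5.46, 5.63 and 5.38. Control replicate 4 was 0.99 above the next control, and control replicate 2 lay within the K320E range. The difference was -0.63 (SE 0.27) and -0.33 (SE 0.13) without control replicate 4. Scd1, the main desaturase of sebaceous gland and fat, measured 8.62, 8.66, 8.54 and 9.68 in controls and 8.23, 7.70, 9.36 and 7.64 in K320E, high both on control replicate 4 and on K320E replicate 3. Scd4 had a difference of -0.01.

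Pparg encodes PPARγ, the lipid-activated receptor needed for sebocyte and adipocyte differentiation. It measured 7.13, 7.14, 7.08 and 8.06 in the controls and 6.99, 6.79, 7.71 and 6.63 in K320E. Control replicate 4 and K320E replicate 3 were high, and the other 6 arrays lay between 6.63 and 7.14. The difference was -0.32 (SE 0.28), and -0.08 (SE 0.23) without control replicate 4. On K320E replicate 3 fat markers were high as well: Adipoq, the adipokine adiponectin, was 7.75 there and 5.31 to 5.68 on the other arrays, and Lpl, lipoprotein lipase, was 9.77 against 6.62 to 7.12. On control replicate 4 the 12 white adipocyte markers were mixed, with a mean of 6.63 against 6.51 to 6.62 in the other controls. Adipoq (5.31), Lipe (6.27) and Pnpla2 (7.42) were lowest there among controls, and Lpl (7.02) lay within the controls. Retn, the adipokine resistin, was 6.76 against 6.19 to 6.33 in the other controls, and Cd36 (7.51), Aqp7 and Plin4 (6.2) were also highest there among controls. The part of fat tissue in the Pparg values of K320E replicate 3 and control replicate 4 was not tested.

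Mgst1, a microsomal glutathione transferase that marks mature sebocytes, was highest on the same pair of arrays, but control replicate 1 was nearly as high. It measured 8.01, 7.69, 7.74 and 8.34 in the controls and 7.64, 7.62, 8.05 and 7.64 in K320E. The other 5 arrays lay between 7.62 and 7.74. Its difference was -0.21 (SE 0.15), and -0.08 (SE 0.13) without control replicate 4.

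Mc5r, the melanocortin receptor that promotes sebum secretion, was the gene most changed by 1 array. It measured 5.89, 5.54, 5.59 and 7.85 in the controls and 6.06, 5.42, 6.03 and 5.91 in K320E. Control replicate 4 was 1.96 above the next control, and the remaining 7 arrays overlapped. The difference of -0.36 (SE 0.46) became 0.18 (SE 0.16), the opposite sign, without that array.

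**Figure D2:**
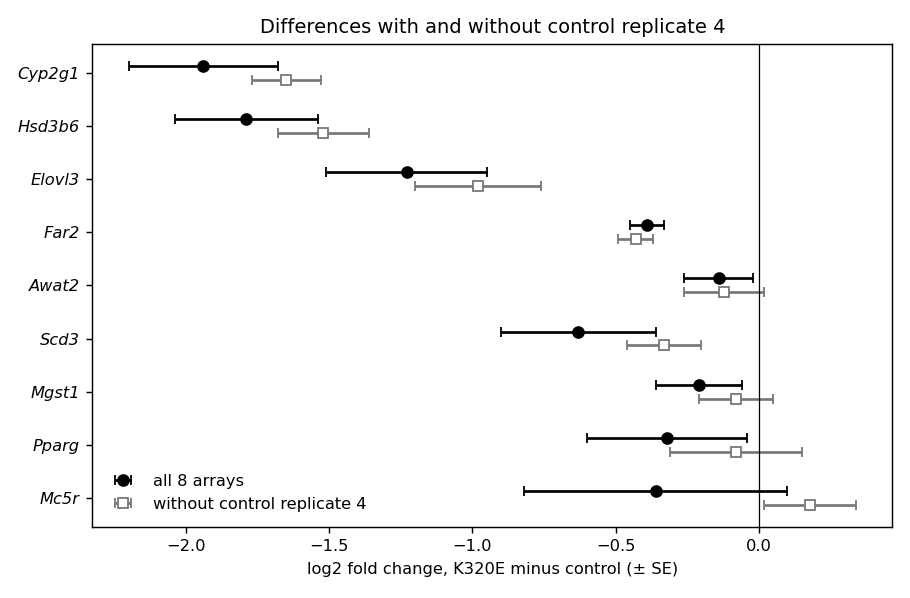
Log2 fold change (K320E minus control, horizontal axis) ± SE from limma for each of the 9 genes, with all 8 arrays (filled circles) and without control replicate 4 (open squares). Cyp2g1, Hsd3b6, Elovl3 and Far2 keep a negative difference, Scd3 moves to -0.33 and Awat2 to -0.12, Pparg and Mgst1 move to -0.08, and Mc5r moves to 0.18.

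Of the 9 genes, 8 fell into patterns that the array-by-array values show directly, and Awat2 followed none of them. Cyp2g1, Hsd3b6 and Elovl3 were lower in every K320E array and highest on control replicate 4. Far2 was lower in every K320E array with control replicate 4 lowest among controls. Scd3, Mgst1, Pparg and Mc5r were high on control replicate 4 and otherwise overlapped. In Scd3 the overlap came through control replicate 2 (5.58), while control replicates 1 (5.92) and 3 (6.09) lay above every K320E array. Hair structure genes had values of the same direction: 24 of 25 had a negative difference, the median was -0.79 (-0.47 without control replicate 4), 0 passed limma's threshold over all genes and 17 had an unadjusted p under 0.05, all lower. Over all 22180 genes, 3288 had an unadjusted p under 0.05 in limma, in either direction. Krtap8-1, a keratin-associated protein of the hair shaft, had the lowest difference of the list, -2.41 (SE 0.49, limma adjusted p = 0.064). It measured 10.28, 9.35, 9.45 and 11.8 in controls and 7.51, 7.73, 7.63 and 8.36 in K320E, with no overlap and control replicate 4 highest. The highest difference was that of Padi4, a peptidylarginine deiminase, 0.05. Trichohyalin (Tchh), a protein of the inner root sheath, measured 10.74, 9.92, 10.11 and 11.40 in controls and 9.15, 9.39, 8.85 and 9.52 in K320E. When the fit took in each array's hair structure mean, the differences were -1.28 for Cyp2g1, -1.12 for Hsd3b6, -0.56 for Elovl3 and -0.48 for Far2, and 1 gene of 22180 was called. That covariate itself differs between the groups, so genotype and hair content cannot be told apart with these arrays.

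**Figure D3:**
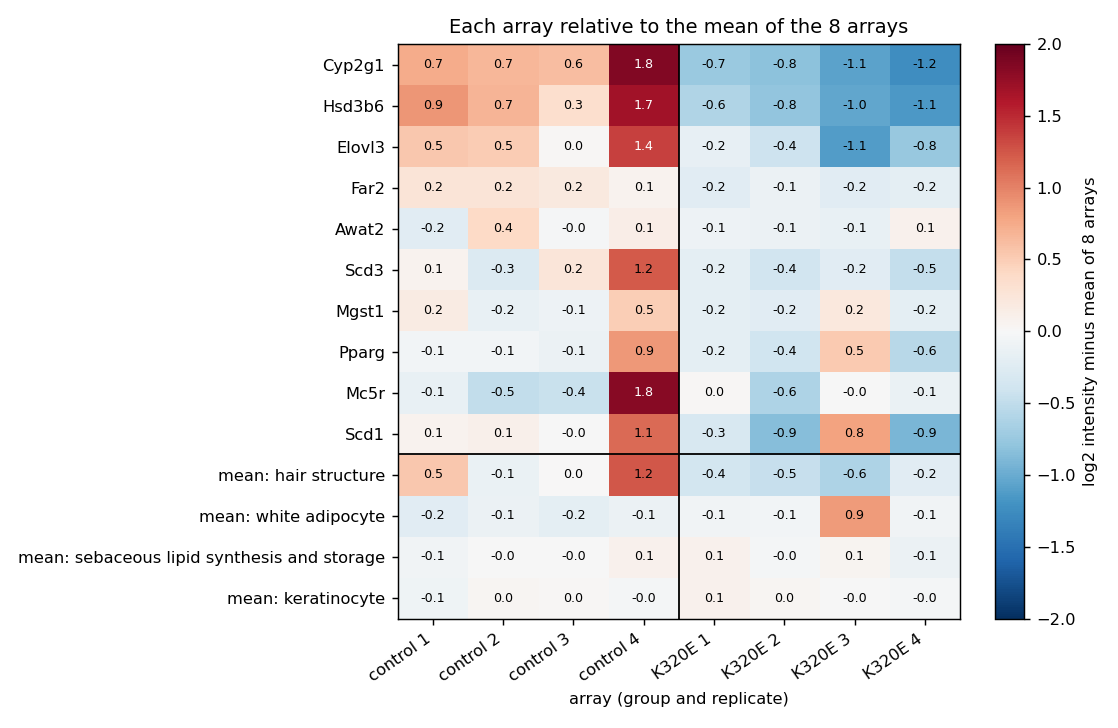
Log2 intensity of each array minus the mean of the 8 arrays (colour and number), for the 9 genes and Scd1 (upper rows) and for the means of 4 gene lists (lower rows); columns are arrays by group and replicate. Control replicate 4 is high in 7 of the 9 genes and in the hair structure mean, and K320E replicate 3 is high in Pparg, Mgst1, Scd1 and the white adipocyte mean.

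The genes most alike in their deviations from the group means were listed for each gene, by Pearson's r over the 8 arrays (6 residual degrees of freedom) among 3169 genes with a residual SD of at least 0.2. These are descriptions, and each r is given with its value without control replicate 4. Hsd3b6 was most like Fa2h (r = 0.99, and 0.97 without control replicate 4), the fatty acid 2-hydroxylase, and next like Vwa8 (0.98 and 0.93) and the hair keratin Krt33b (0.96 and 0.88). Elovl3 shared Vwa8 (0.95 and 0.92) and Fa2h (0.95 and 0.93) and was also like Cldn3 (0.95 and 0.95), a claudin. Cyp2g1 was most like Aadacl4 (0.98 and 0.81), Psors1c2 (0.97 and 0.78) and the keratin-associated gene Krtap14 (0.97 and 0.78). Pparg was most like Scd1 (0.98 and 0.99), then Nol10 (0.91 and 0.82) and Stk39 (0.91 and 0.81). Mc5r was most like Fads3 (0.98 and 0.82), a relative of the fatty acid desaturases, then Krtap19-9b (0.97 and 0.74) and Krtap4-1 (0.97 and 0.54). Scd3 was most like Foxc1 (0.97 and 0.8), a forkhead factor, then Fads3 (0.96 and 0.71) and Dst (0.96 and 0.67). The genes nearest to Far2 were BC037704 (0.97 and 0.91), Bex4 (0.95 and 0.89) and Btg1c (0.92 and 0.83). Far2 itself had a residual SD of 0.07, below the minimum asked of the genes compared with it, so its r values rest on small deviations, the largest being -0.13 on control replicate 4. Mgst1 was nearest to Map3k5 (0.96 and 0.92), Cdc42ep3 (0.93 and 0.87) and Crnn (0.92 and 0.87). Awat2 was nearest to Grap2 (0.96), Znrd1as (0.95) and Mirlet7c-1 (0.92), with the same 3 values without control replicate 4. Among the 9 genes themselves, Hsd3b6 had r = 0.95 with Cyp2g1 and 0.93 with Elovl3, which were 0.84 and 0.86 without control replicate 4. Mc5r against Cyp2g1 went from 0.87 to -0.13.

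Sebum synthesis draws on many enzymes beyond these. Of 33 other genes of lipid synthesis and storage, 0 passed limma's threshold, and the median difference was 0.01. At an unadjusted p under 0.05, 1 was higher and 2 were lower. The lowest difference was that of Scd1, -0.64 (SE 0.39, limma adjusted p = 0.51), and the highest that of Plin2, the coat protein of lipid droplets, 0.47 (SE 0.17, limma adjusted p = 0.23). Fasn, the fatty acid synthase, had a difference of 0.31 and Dgat2, which makes triglycerides, of 0.27. Elovl7, another elongase, had -0.07. Cidea, a lipid droplet protein of sebocytes, measured 6.62, 6.71, 6.56 and 7.40 in controls and 6.57, 6.43, 6.35 and 6.46 in K320E, again highest on control replicate 4.

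Genes of sebocyte and upper follicle identity showed differences of both signs, with 0 of 16 past the threshold, a median of -0.06, and 3 higher and 1 lower at an unadjusted p under 0.05 (limma). Plet1, a surface protein of the follicle junction, measured 12.04, 11.69, 12.19 and 11.83 in K320E and 11.28, 11.35, 11.55 and 11.30 in controls, a difference of 0.57 (SE 0.11, limma adjusted p = 0.058). Apoc1, an apolipoprotein, had -0.38 with groups that did not overlap, and Psors1c2 had -0.59 (SE 0.34) with 9.87 on control replicate 4. Krt79, a keratin of the follicle canal and sebaceous duct, had -0.11 and Lrig1, a stem cell marker of the junctional zone, -0.09. Prdm1 (Blimp1), a repressor linked to sebocyte differentiation, had 0.29.

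Among 15 PPAR partners and lipid transcription factors 0 passed, with a median of 0.13 (limma; 4 higher and 0 lower at an unadjusted p under 0.05). Srebf2, the sterol-sensing factor, had the highest difference, 0.40 (SE 0.18), and Rxrb, a partner receptor of PPARs, the lowest, -0.06 (SE 0.15). Rxra had 0.13, Ppard 0.29 and Ppara -0.02. The melanocortin list, 10 genes with the other receptors, their accessory proteins and the precursor Pomc, had 0 past the threshold, 0 at an unadjusted p under 0.05 and a median of 0.08 (limma). Mc1r, the pigment cell receptor, had 0.06, Mc2r -0.08 and Mgrn1, a ubiquitin ligase of this pathway, 0.24. Atrn, attractin, had 0.10.

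Of 38 steroid genes other than Hsd3b6, 0 passed, the median was -0.02, and 2 were higher and 4 lower at an unadjusted p under 0.05 (limma). Akr1c18, the 20α-hydroxysteroid dehydrogenase that inactivates progesterone, measured 7.01, 6.94, 6.81 and 6.90 in controls and 6.19, 6.57, 6.62 and 6.29 in K320E. Its groups did not overlap, with a difference of -0.50 (SE 0.10, limma adjusted p = 0.067), and control replicate 4 did not stand out. Cyp17a1, the enzyme that leads to androgens, had the lowest difference, -0.54 (SE 0.18), with overlapping groups. Sult2b1, a cholesterol sulphotransferase of the epidermal barrier, had the highest, 0.47 (SE 0.18), and Star, which carries cholesterol into mitochondria, had 0.37 (SE 0.14). Cyp11a1, the side-chain cleavage enzyme, had -0.12, and Hsd17b4, a peroxisomal enzyme, -0.16.

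Of 25 other P450 enzymes 0 passed, with a median of -0.04 (limma; 0 higher and 3 lower at an unadjusted p under 0.05). Cyp2b10 had -0.70 (SE 0.20) and Cyp2f2 -0.58 (SE 0.19), both with overlapping groups. Cyp2b19, the keratinocyte arachidonate epoxygenase, had -0.04, and Cyp2w1 had the highest value, 0.25.

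Glutathione transferases included the 2 genes of these pathway lists that passed, both higher in K320E, where 0.685% of all genes passed in that direction. Gsta4, which conjugates the lipid peroxidation product 4-hydroxynonenal, measured 9.69, 9.10, 9.77 and 9.68 in K320E and 8.19, 7.78, 7.69 and 7.53 in controls. It rose by 1.77 (SE 0.18, limma adjusted p = 0.0043) and passed whichever array was left out, though not with the hair structure covariate (adjusted p = 0.14). Gsto2, an omega class transferase, measured 7.32, 7.06, 7.49 and 7.18 in K320E and 6.65, 6.81, 6.76 and 6.61 in controls, with no overlap. It rose by 0.56 (SE 0.10, limma adjusted p = 0.037). Its call was lost without K320E replicate 1 (adjusted p = 0.089), 3 (0.079) or 4 (0.081) and without control replicate 1 (0.095), 2 (0.072), 3 (0.062) or 4 (0.093), and among these it was kept only without K320E replicate 2 (0.028). It was also lost with the hair structure covariate (0.4), with the white adipocyte covariate (0.14) and without control replicates 2 and 3 together (0.079). Mgst2 had the lowest difference of the 19 genes, -0.41 (SE 0.14), Mgst3 had 0.17, Gsto1 had 0.09, and the list's median was 0.01.

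**Figure D4:**
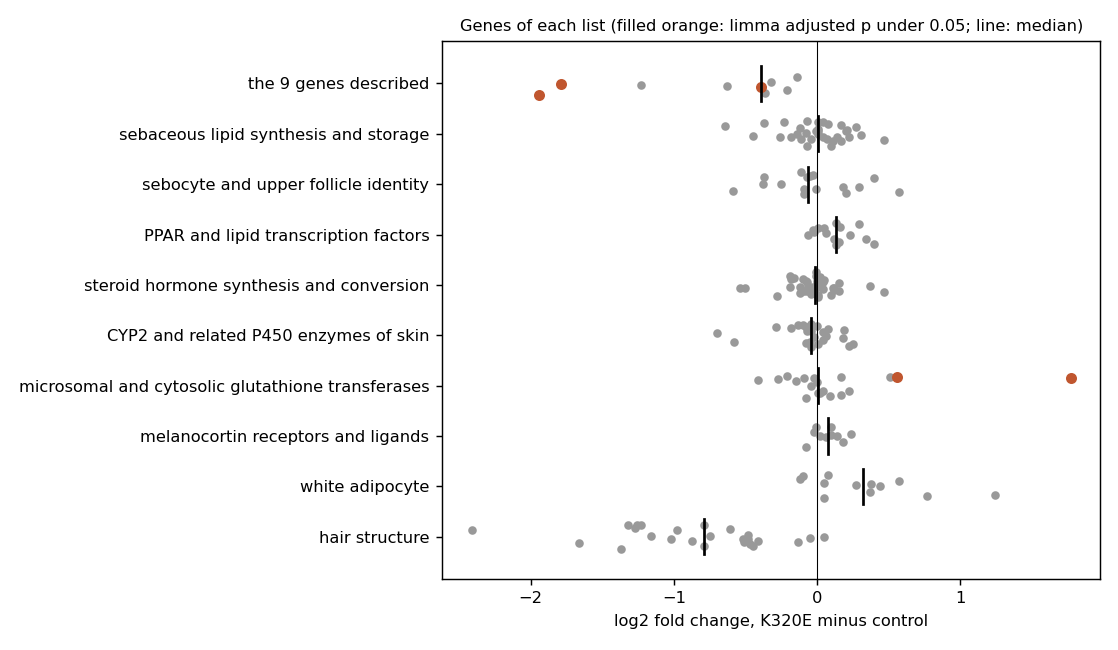
Log2 fold change (K320E minus control, horizontal axis) of every gene in the set described and in 9 related lists (rows); orange points passed a limma adjusted p under 0.05 and black lines are medians. The set described has a median of -0.39 and hair structure genes of -0.79, while the lipid, steroid, P450 and glutathione lists lie around 0, with Gsta4 at 1.77.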

How the data were processed

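The deposited values are log2 intensities of 33793 probe sets on 8 arrays, made by the authors from RNA amplified and biotin-labelled with a NuGEN Applause kit, per the labels' protocols. How the signals were background-corrected and normalised is not given in the sources used here. Values run from 4.31 to 13.1, array medians from 6.06 to 6.11, and no detection call was used, so a low value may be background. Awat2 (mean 5.80), Scd3 (5.85) and Mc5r (6.04) averaged below every array median, as did Hsd3b6 in K320E (5.97). Probe sets were named through GEO's platform annotation, with 23521 given 1 gene symbol, 1814 several (left out) and 8458 unnamed here; 1 list entry was matched through an older name. The single-gene probe set with the highest mean stood for each of 22180 genes.

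K320E was set against control in limma 3.58.1 (R 4.3.3, lmFit then eBayes, 8 arrays, genotype as the single term, Benjamini-Hochberg over all genes, threshold 0.05). Tested on simulated data for this comparison over 22180 genes, recovery was 76.7% at 1.5-fold, 93.9% at 2-fold and 100% at 4-fold, and 14 unchanged genes were called. The simulated noise was independent between genes and lacked the shared hair and fat variation of these arrays. These rates may therefore not hold for follicle and gland genes. The genes described and all lists were chosen with earlier results of these data known. Named from each list were called genes, the highest and lowest differences and the most highly expressed gene; for each gene described, the 3 most alike by within-group deviations; Twnk; and relatives of the genes described. Other genes named were chosen after their values were seen. Replicate numbers are shared by the groups but the labels do not pair them; same-numbered arrays had correlations of deviations of 0.051, -0.065, 0.082 and 0.137.

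Other settings tried were median centring, quantile normalisation, every probe set tested, probe sets averaged, leaving out the genes of lowest mean level (which kept all 9 genes described), an intensity trend with robust prior, array weights, the replicate block, covariates for Y-linked, hair structure and white adipocyte levels, leaving out each array, and leaving out control replicates 2 and 3 together. Promoter windows are RefSeq's (GRCm38.p6).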

Additional observations from a re-analysis of the deposited data

Results flagged for a closer look

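Within each group of 4 arrays, an array was singled out when its gap to the nearest other array, divided by the range of the group, was above Dixon's critical value. Here it was 16 of 120 groups, among them 5 of the 18 groups of the genes described. Chance singles out about 1 in 20 independent groups. Many of these genes vary together, and some were named for their differences. That rate is therefore no yardstick for these counts, which are a description. Control replicate 4 was the highest control for Pparg (8.06, ratio 0.933), Cyp2g1 (11.06, ratio 0.897), Scd1 (9.68, ratio 0.892) and Mc5r (7.85, ratio 0.848), and the lowest for the mean of the P450 list (6.62, ratio 0.938). K320E replicate 3 was the highest K320E array for the white adipocyte mean (7.60, ratio 0.975) and for Mgst1 (8.05, ratio 0.952). Awat2 was highest in K320E replicate 4 (5.89, ratio 0.833).

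In K320E replicate 1 the highest values were those of the PPAR and lipid transcription factor mean (7.48, ratio 0.931), the sebocyte and upper follicle mean (8.36, ratio 0.867), Srebf2 (9.16, ratio 0.856), Hsd17b4 (10.28, ratio 0.897) and Krt10 (12.95, ratio 0.838). K320E replicate 2 was the lowest for Gsta4 (9.10, ratio 0.868) and the highest for Elovl7 (12.29, ratio 0.859). Itga6, a basal integrin, was highest in control replicate 3 (11.40, ratio 0.899).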

How the results depend on the processing

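Over all genes 195 were called, and 53 to 173 when each array was left out in turn; the count was 114 with the replicate block, 29 with the white adipocyte covariate and 1 with the hair structure covariate. Of the 9 genes described 3 were called, 0 to 3 with an array left out, 1 with the replicate block (Hsd3b6, with Cyp2g1 and Far2 losing their calls), and 0 with the hair structure or the white adipocyte covariate. The pathway lists had 2 called genes, 1 to 3 with an array left out, 4 without the genes of lowest mean level, 1 with the replicate block (Gsta4, with Gsto2 at adjusted p = 0.077 in limma), 1 with the white adipocyte covariate, 0 with the hair structure covariate and 1 without control replicates 2 and 3 together. The cell type lists had 0, 0 to 1 with an array left out, 2 without the genes of lowest mean level, 3 with the replicate block and 9 without control replicates 2 and 3 together. With the hair structure covariate the difference changed sign for Mgst1 (0.12), Pparg (0.07), Mc5r (0.94) and Scd3 (0.06); the cause was not tested. Mc5r ran from -0.59 to 0.18 when each array was left out. Over all alternatives the difference stayed negative for Cyp2g1 (-2.27 to -1.28), Hsd3b6 (-2.17 to -1.12), Elovl3 (-1.57 to -0.56), Far2 (-0.48 to -0.35) and Awat2 (-0.24 to -0.02). Elovl3 was called under 1 alternative, leaving out the genes of lowest mean level.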

Other observations

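Among markers of other cell types, 0 passed limma's threshold in any list. Of 12 white adipocyte genes the median difference was 0.32, with 4 higher at an unadjusted p under 0.05; the differences ran from -0.12 (Plin4) to 1.24 (Fabp4, SE 0.47). Of 10 brown adipocyte genes it was 0.06, with 0 at that level, from -0.06 (Otop1) to 0.22 (Kng2). Of 11 melanocyte genes the median was -0.24, with 4 lower, from -0.61 (Tyrp1, SE 0.22) to 0.13 (Sox10), and Mlana had -0.40. Of 14 skeletal muscle genes it was 0.17, with 2 higher, from -0.22 (Myh1) to 1.08 (Mylpf, SE 0.46), and Tnnt3 had 1.03. Of 13 keratinocyte genes the median was 0.02, with 2 higher and 1 lower, from -0.31 (Krt15, SE 0.08) to 0.32 (Itga6, SE 0.08). Among the 3 Y-linked genes, Eif2s3y had -0.43 (SE 1.11) and Kdm5d 0.07 (SE 1.24).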
